A study of Mus musculus with 12 samples.

Results

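Hypoxia and glycolysis genes are described here in intracranial B16 F1 melanoma: 34 genes, chosen by name as commonly used readouts of the cellular response to low oxygen and as enzymes and transporters of glucose breakdown, of 47069 genes in the count table. All 34 symbols matched a row, and all 34 passed the filter on low counts that left 15925 genes for testing. B16 F1 is a pigmented mouse melanoma cell line, and 100000 cells were implanted into the brain of C57BL/6 mice, with tumors removed at day 9. The sequenced tissue was the intracranial tumor in every case, and RNA-seq libraries were made from 12 of them in 4 groups of 3. In both intracranial-only groups the mouse carried the brain tumor alone, given IgG as the control antibody or anti-PD-1 plus anti-CTLA-4 (therapy). In both remaining groups the mouse carried an intracranial and an extracranial tumor (both-tumor), again with IgG or therapy. PD-1 and CTLA-4 are inhibitory receptors of T cells, and antibodies to them release T cell responses. The study's title ties the efficacy of this therapy in brain metastases to extracranial disease. The age and sex of the mice and the site of the extracranial tumor are not given in the labels.

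Hypoxia-inducible factors (HIF) are pairs of an alpha subunit, Hif1a or Epas1, with Arnt. In oxygenated cells the prolyl hydroxylases Egln1, Egln2 and Egln3 mark the alpha subunit for breakdown through Vhl, so the factor is controlled mainly at the protein and not at the RNA. When oxygen falls the factor binds the core sequence RCGTG in promoters and enhancers and raises genes for blood vessel growth, glucose uptake, glycolysis, lactate export, acid handling and collagen hydroxylation, several of which also act in its own feedback. Many tumors, melanoma among them, also run a high rate of glycolysis in oxygen, so RNA of these genes is not a direct measure of oxygen.

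Library totals lay between 18427495 and 22294182 reads. Levels within a gene are CPM (counts scaled to a common library size) scaled with TMM factors of 0.959 to 1.044, and values of a group are listed in the order of replicates 1, 2 and 3, a number given in accession order. Adjusted p-values are from edgeR's quasi-likelihood test with Benjamini-Hochberg adjustment over 15925 genes, with a threshold of 0.05, and ± after a log2 difference is its standard error. The labels call the samples of a group biological triplicates but name no animal, so the p-values measure the spread between these samples. All 9 melanocyte markers checked were present, and their summed level overlapped between groups (29273 to 32959 CPM in intracranial-only IgG, 26985 to 35165 in intracranial-only therapy, 30452 to 32527 in both-tumor IgG and 29914 to 34404 in both-tumor therapy). Markers of brain cells differed more. The summed level of 12 neuron markers was 319 to 574 CPM in intracranial-only IgG, 105 to 116 in intracranial-only therapy, 110.3 to 685 in both-tumor IgG and 546 to 1477 in both-tumor therapy, and no neuron marker was at 0 throughout a group. In these bulk samples, fewer cells of a type and less RNA per cell cannot be told apart.

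The promoters of these genes were searched for 2 forms of the HIF core sequence, ACGTG and GCGTG, on both strands. RefSeq windows from 250 bases before to 50 bases after a transcript start on GRCm38.p6 were found for 31 of the 34 genes (none for Bnip3l, Ndrg1 and Plod2). ACGTG was present in at least 1 window of 22 of these 31 genes, 71.0%, against 21.8% of 27025 genes with a window of the same length. Counted by window, 55.6% of 45 windows held it, against 19.6% of 32851. GCGTG was present in 71.0% of the 31 genes, against 35.2% of all genes. A match is a description of these letters and not a measured binding site. The 34 genes were chosen as readouts of low oxygen and as glycolysis genes. All genes with a window were not matched to them in base composition or in windows per gene. The 250 bases before the start are shown for 6 genes whose values are described below, 5 with the ACGTG form and Adm without it, written 5′ to 3′ on the gene's own strand, with ACGTG and its reverse complement CACGT in capitals (a CACGTG run holds both).
Ldha, chr7:46845554-46845803, plus strand: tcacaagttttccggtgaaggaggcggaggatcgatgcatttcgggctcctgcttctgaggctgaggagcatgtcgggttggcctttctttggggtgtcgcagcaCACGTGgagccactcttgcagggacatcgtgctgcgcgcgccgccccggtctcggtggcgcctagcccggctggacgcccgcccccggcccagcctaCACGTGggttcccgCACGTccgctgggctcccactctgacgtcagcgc
Pgk1, chrX:106186850-106187099, plus strand: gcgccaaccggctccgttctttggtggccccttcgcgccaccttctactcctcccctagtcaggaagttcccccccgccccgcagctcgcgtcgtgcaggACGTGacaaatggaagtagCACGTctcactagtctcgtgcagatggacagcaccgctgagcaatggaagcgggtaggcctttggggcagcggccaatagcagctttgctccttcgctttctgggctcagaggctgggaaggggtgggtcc
Hk2, chr6:82774455-82774704, minus strand: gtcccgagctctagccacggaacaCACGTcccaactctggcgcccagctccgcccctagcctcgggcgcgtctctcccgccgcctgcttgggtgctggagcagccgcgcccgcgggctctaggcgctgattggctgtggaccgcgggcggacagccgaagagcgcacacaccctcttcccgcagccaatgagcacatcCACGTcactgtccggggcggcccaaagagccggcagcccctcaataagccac
Bnip3, chr7:138909507-138909756, minus strand: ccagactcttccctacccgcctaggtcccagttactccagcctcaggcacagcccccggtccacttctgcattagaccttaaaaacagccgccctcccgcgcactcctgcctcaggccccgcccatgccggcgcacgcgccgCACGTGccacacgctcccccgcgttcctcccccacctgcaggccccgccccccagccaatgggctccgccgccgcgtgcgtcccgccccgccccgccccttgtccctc
Ankrd37, chr8:45999851-46000100, minus strand: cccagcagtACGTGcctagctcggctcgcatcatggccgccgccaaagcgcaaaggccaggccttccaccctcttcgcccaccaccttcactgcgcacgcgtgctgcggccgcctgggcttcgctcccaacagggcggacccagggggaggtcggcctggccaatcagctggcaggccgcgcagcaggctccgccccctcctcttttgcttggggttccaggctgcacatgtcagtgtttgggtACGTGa
Adm, chr7:110627407-110627656, plus strand: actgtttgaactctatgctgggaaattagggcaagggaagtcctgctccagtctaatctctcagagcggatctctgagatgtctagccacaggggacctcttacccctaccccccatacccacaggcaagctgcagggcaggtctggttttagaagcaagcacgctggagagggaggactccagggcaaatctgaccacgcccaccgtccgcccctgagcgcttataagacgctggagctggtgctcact

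The Ldha stretch held ACGTG or its reverse complement 5 times, counting each CACGTG run on both strands, and those of Pgk1, Hk2, Bnip3 and Ankrd37 held it 2 times each. Adm held it 0 times, though its stretch held GCGTG or its reverse complement 2 times.

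The 34 genes moved largely together from library to library. Their mean log2 CPM was 7.72, 7.64 and 7.38 in intracranial-only IgG (7.58 ± 0.17, SD, n = 3) and 6.86, 8.04 and 7.13 in intracranial-only therapy (7.34 ± 0.62). It was 6.95, 7.21 and 6.40 in both-tumor IgG (6.85 ± 0.41) and 6.80, 6.70 and 6.95 in both-tumor therapy (6.82 ± 0.13). Every intracranial-only IgG library lay above every library with both tumors, while the intracranial-only therapy libraries reached from among the both-tumor values to above all others. Replicate 2 of intracranial-only therapy was the highest of its group for 34 of 34 genes and the highest of all 12 libraries for 31. Its levels were a median of 2.23 times those of replicate 1 of the same group (range over genes 1.08 to 5.20 times). The summed neuron markers of replicates 1, 2 and 3 of this group were alike (105, 116 and 107 CPM), as were 12 cell cycle genes (2234, 2418 and 2073 CPM). Other sums differed more in the same order. Melanocyte markers were at 35165, 26985 and 29769 CPM, and pericyte and fibroblast markers at 713, 220 and 321. Red blood cell genes were at 6.97, 23.4 and 1.61 CPM, and T cell markers at 3.26, 2.74 and 14.6. Replicate 3 of both-tumor IgG was the lowest of its group for 32 genes and of all 12 libraries for 18. It also had the highest neuron and lowest cell cycle sums of its group (685 and 1113 CPM), while replicate 2, the highest of that group for 24 genes, had the lowest neuron and highest cell cycle sums (110.3 and 2207 CPM). The part of these markers in the differences between the libraries was not tested. The sample name of replicate 2 of both-tumor IgG carries a suffix that no other library has.

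**Figure D1:**
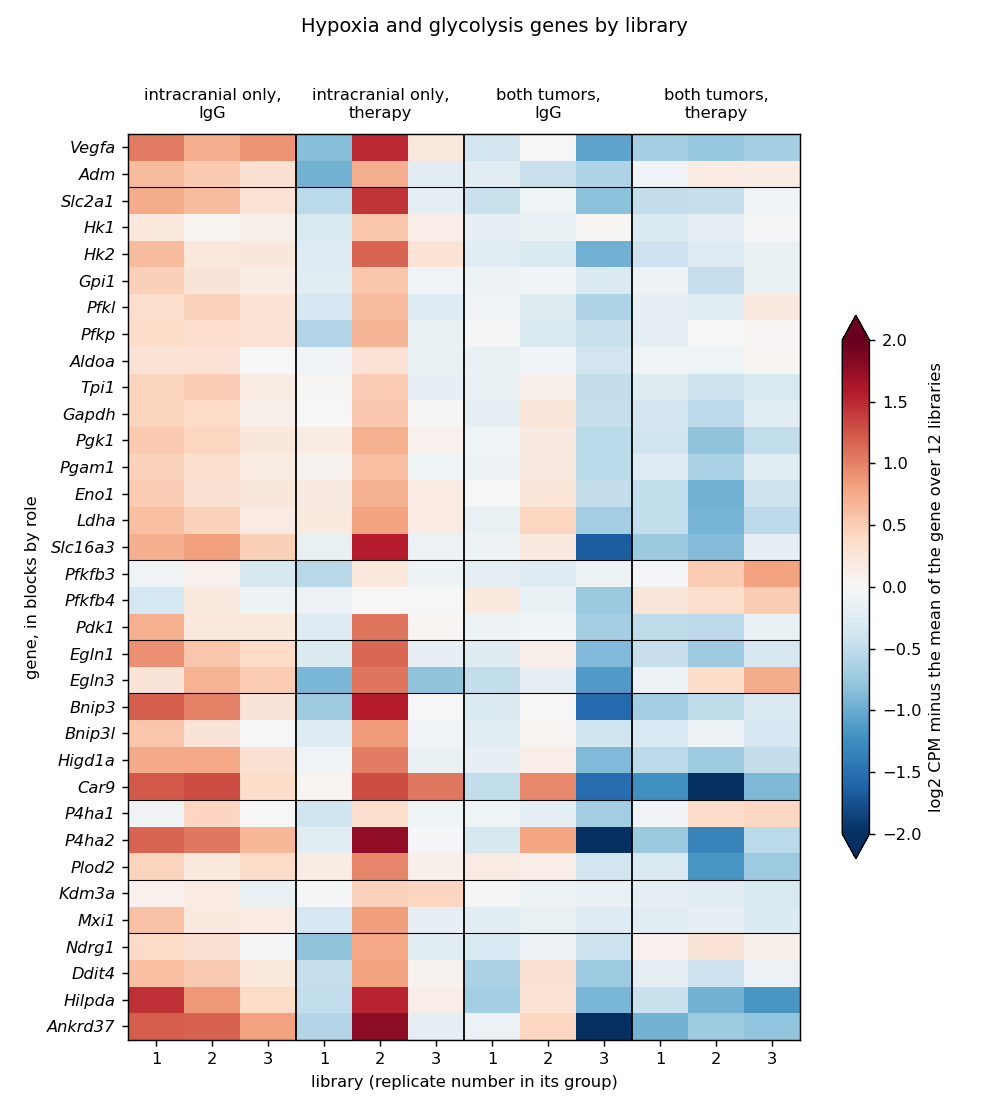
Log2 CPM of each of the 34 genes (rows, in blocks by role) in each of the 12 libraries (columns, by group and replicate number), as the difference from the mean of that gene over the 12 libraries. Red is above and blue below that mean, with colors capped at 2 log2 units, and replicate 2 of intracranial-only therapy is the highest library for 31 of 34 genes.

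Under IgG, the genes lay lower in intracranial tumors of mice that also had an extracranial tumor. All 34 were fitted below 0, by a median log2 difference of -0.56, against 0.01 over all genes tested, with Bnip3 at -1.34, Ankrd37 at -1.34, Hilpda at -1.32 and Vegfa at -1.30 at the far end. For 23 genes (67.6%) every both-tumor library was below every intracranial-only library in CPM, against 2.78% of all genes lower in that way. Of these, P4ha1 and Hk1 overlapped on deposited FPKM (read counts scaled by gene length and library size). Their lowest intracranial-only values were 41.6 and 231 FPKM, and their highest both-tumor values 42.6 and 235. No gene passed the threshold, as for all genes tested (0%): edgeR, DESeq2 and limma voom each called 0 of the 34, and 14 had an unadjusted edgeR p under 0.05, against 1.18% of all genes in either direction. Because the 34 genes moved largely together from library to library, these 23 and 14 genes are not separate observations of a difference. The lists of neuron, cell cycle and melanocyte markers each had 0 genes past the threshold and 0 that did not overlap between these groups. All 5 red blood cell genes were fitted below 0, at 11.6 to 153 summed CPM against 0.644 to 14.9, and their part in the result was not tested.

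Under therapy, 10 of the 34 genes fell in tumors of mice with an extracranial tumor and 0 rose: the glycolytic Eno1, Pgk1, Ldha and Gapdh, the collagen modifier Plod2, the histone demethylase Kdm3a, the carbonic anhydrase Car9, the mitochondrial Higd1a, the lipid droplet gene Hilpda and Vegfa. This is 29.4% of the genes, in a comparison in which 45.4% of all genes passed the threshold, 21.0% fell and 24.4% rose. DESeq2 called 16 of the 34 lower and 1 higher, against 39.8% of all genes, and limma voom 7 lower, against 43.5%. The median over the 34 was -0.57, against 0.03 over all genes, and 28 were fitted below 0. Groups did not overlap for 14 genes lower (41.2%, against 28.5% of all genes) and for 1 gene higher, Pfkfb4 (2.94%, against 31.4%). Markers of other cells differed between these groups too. By edgeR all 12 neuron markers rose, as did all 11 oligodendrocyte, 9 of 10 astrocyte, 6 of 10 endothelial, 10 of 10 microglia, 7 of 12 macrophage and 9 of 10 T cell markers. The oligodendrocyte marker Opalin was at 0 throughout intracranial-only therapy. Of 5 tested neutrophil markers 1 rose, and Ly6g of that list was at 0 throughout both intracranial-only groups. DESeq2 called all 12 neuron markers higher and limma voom 4, while limma voom called all 11 oligodendrocyte and all 10 microglia markers. All 12 cell cycle genes fell (2073 to 2418 CPM summed in intracranial-only therapy, 261 to 844 in both-tumor therapy), and 0 of 9 melanocyte markers passed. With the neuron score as a covariate, 0 of the 34 genes were called, as were 0% of all genes, so that count does not set the 34 apart. Their median was then -0.0046, and the score itself did not overlap between the compared groups. The calls of Pgk1, Eno1, Plod2 and Kdm3a were made in 20 of 21 alternative analyses, all but that one, and those of Vegfa and Gapdh in 8 and 9. The count was 17 without replicate 1 of intracranial-only therapy (35.6% of all genes were called), 4 and 6 without replicates 2 and 3 of both-tumor therapy (29.1% and 33.6%), and 10 without replicate 2 of intracranial-only therapy (34.5%), when 6 were lower and 4 higher.

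**Figure D2:**
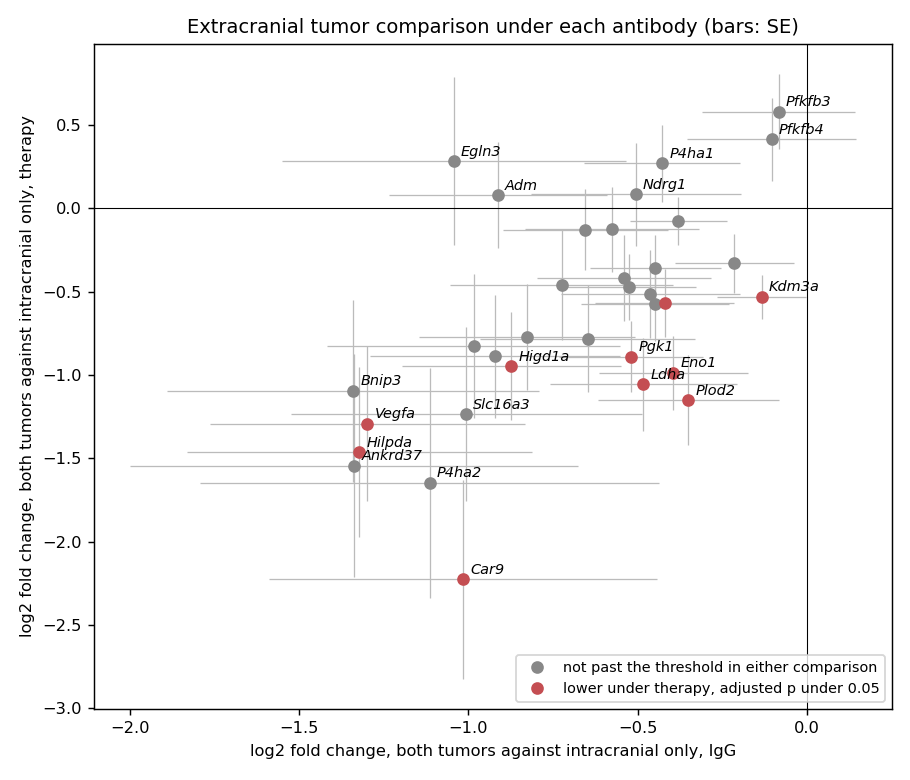
Log2 difference of both-tumor against intracranial-only tumors for each of the 34 genes, under IgG (horizontal axis) and under therapy (vertical axis), with standard errors as bars. All 34 points lie left of 0 and 28 lie below 0, with the 10 genes past the threshold under therapy in red, and both axes use separate libraries.

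Therapy itself was followed by no change past the threshold in these genes. In mice with both tumors, 0 of 34 genes were called by edgeR, against 5.39% of all genes, and 5 had an unadjusted p under 0.05 (2 higher, 3 lower), against 33.4%. DESeq2 called 1, Pfkfb3 as higher, where it called 20.4% of all genes, and limma voom 0, against 10.6%. The groups did not overlap for 6 genes higher (Adm, Egln3, Ndrg1, P4ha1, Pfkfb3 and Pfkfb4; 17.6%, against 17.9% of all genes) and 1 lower (Kdm3a; 2.94%, against 20.1%), and without replicate 3 of both-tumor IgG for 6 genes higher and 16 lower, against 25.9% and 27.3% of all genes, with only Eno1 called, at -0.74 (adjusted p = 0.0496), against 12.6%. In mice with the intracranial tumor only, 0 genes were called by edgeR, DESeq2 or limma voom, which called 0%, 5.70% and 0% of all genes, 0 had an unadjusted p under 0.05, against 13.5%, and for 0 genes were the groups apart, against 23.2%. The median of the 34 was -0.13 there, and it was -0.46 without replicate 2 of intracranial-only therapy, when 27 genes no longer overlapped with IgG, all lower, against 19.6% of all genes. For the interaction, the difference between both therapy effects, 0 of 34 genes passed by edgeR, DESeq2 or limma voom, against 22.0%, 29.0% and 9.95% of all genes, and 0 had an unadjusted p under 0.05, against 39.4%. Its median was 0.02, and 0.52 without replicate 2 of intracranial-only therapy. The effect of the extracranial tumor is thus not shown to differ between IgG and therapy for any of the 34.

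**Figure D3:**
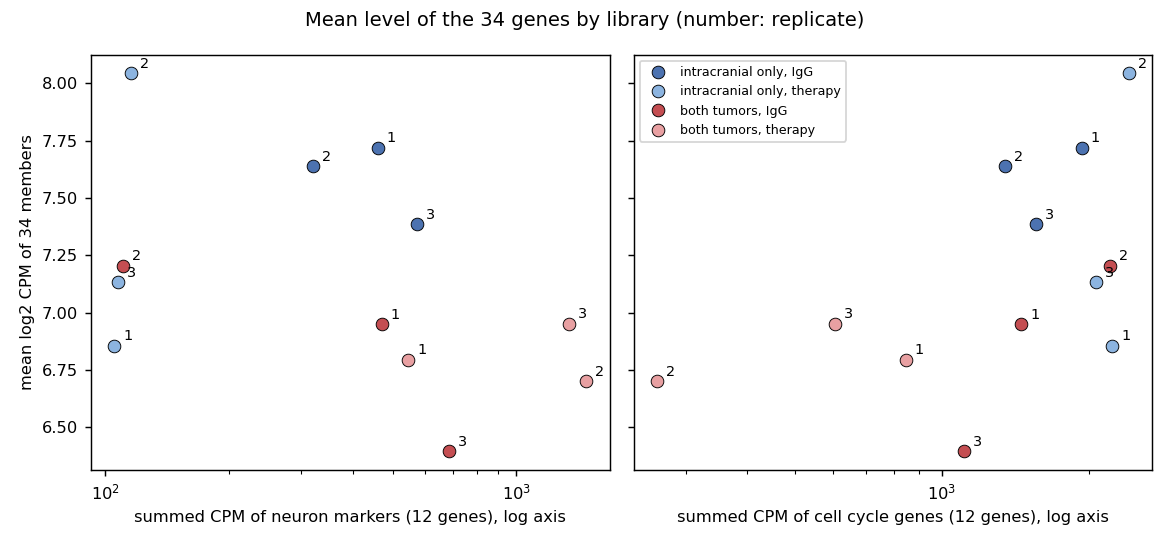
Mean log2 CPM of the 34 genes (vertical axis) in each library, against the summed CPM of 12 neuron markers (left, log axis) and of 12 cell cycle genes (right, log axis), with points colored by group and numbered by replicate. The 3 intracranial-only therapy libraries have nearly equal neuron sums but means of 6.86 to 8.04, while the both-tumor therapy libraries have the lowest cell cycle sums.

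Both angiogenic genes were at their highest in intracranial-only IgG as a group. Vegfa (ENSMUSG00000023951, chr17:46016993-46032369, minus strand of GRCm38) encodes the main growth factor of blood vessels and was at 142, 115 and 130.1 CPM in the intracranial-only IgG libraries, 38.6, 197 and 80.5 in intracranial-only therapy, 54.3, 69.3 and 33.7 in both-tumor IgG and 43.9, 41.2 and 43.9 in both-tumor therapy. The groups under IgG did not overlap, with means of 129 ± 13.6 and 52.4 ± 17.9 CPM (SD, n = 3), while under therapy replicate 1 of intracranial-only therapy lay below every both-tumor library. The log2 difference with an extracranial tumor was -1.30 ± 0.47 (adjusted p = 1) under IgG and -1.29 ± 0.47 (adjusted p = 0.0429) under therapy, and the latter became -0.50 (adjusted p = 0.242) without replicate 2 of intracranial-only therapy. Adm, the gene of the vasodilator peptide adrenomedullin (ENSMUSG00000030790, chr7:110627661-110629820, plus strand), was at 66.8, 62.4 and 53.4 CPM in the intracranial-only IgG libraries, 22.5, 71.3 and 37.4 in intracranial-only therapy, 37.0, 31.6 and 28.3 in both-tumor IgG and 41.8, 48.7 and 48.0 in both-tumor therapy. Unlike Vegfa, Adm was higher in every both-tumor therapy library than in every both-tumor IgG library, at 0.52 ± 0.32 (adjusted p = 0.265). With an extracranial tumor it was at -0.91 ± 0.32 (adjusted p = 1) under IgG, without overlap, and at 0.08 ± 0.32 (adjusted p = 0.854) under therapy, the latter 0.60 (adjusted p = 0.0491) without replicate 2 of intracranial-only therapy. Its interaction, 0.99 ± 0.45 (adjusted p = 0.129), had the smallest unadjusted p of the 34 and did not pass.

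Glucose enters through Slc2a1, the transporter GLUT1 (ENSMUSG00000028645, chr4:119108711-119137983, plus strand). It was at 248, 227 and 182 CPM in the intracranial-only IgG libraries, 102, 399.6 and 129 in intracranial-only therapy, 109, 139 and 83.6 in both-tumor IgG and 106, 107 and 143 in both-tumor therapy. Replicate 2 of intracranial-only therapy held 399.6 CPM, above all others, and both other libraries of that group lay within the range of the mice with both tumors. With an extracranial tumor the log2 difference was -0.98 ± 0.43 (adjusted p = 1) under IgG, where the groups did not overlap, and -0.82 ± 0.43 (adjusted p = 0.14) under therapy. Hexokinase 2, Hk2 (ENSMUSG00000000628, chr6:82725025-82774454, minus strand), traps glucose as its phosphate. It was at 344, 257 and 259 CPM in the intracranial-only IgG libraries, 185, 496 and 267 in intracranial-only therapy, 192, 180.3 and 114 in both-tumor IgG and 167, 185 and 203 in both-tumor therapy. The difference was -0.83 ± 0.32 (adjusted p = 1) under IgG, again without overlap, and -0.77 ± 0.32 (adjusted p = 0.0689) under therapy. Hk1, the hexokinase found in most tissues, varied less (297 to 333 CPM in intracranial-only IgG and 257 to 293 in both-tumor IgG).

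Of the enzymes in the middle of the path, Pfkl encodes the liver form of phosphofructokinase (ENSMUSG00000020277, chr10:77986947-78010083, minus strand). It was at 637, 686 and 599 CPM in the intracranial-only IgG libraries, 395, 768 and 419 in intracranial-only therapy, 472, 422 and 327 in both-tumor IgG and 444, 431 and 569.5 in both-tumor therapy. The difference with an extracranial tumor was -0.66 ± 0.24 (adjusted p = 1) under IgG, without overlap, and -0.13 ± 0.24 (adjusted p = 0.684) under therapy. Gpi1, Pfkp, Aldoa and Tpi1 also did not overlap between the IgG groups, at -0.45, -0.58, -0.38 and -0.53, each with an adjusted p of 1. Gapdh, the dehydrogenase of the middle of glycolysis, was at 2458 to 3112 CPM in intracranial-only IgG, 2286 to 3319.9 in intracranial-only therapy, 1673 to 2724 in both-tumor IgG and 1592 to 1979 in both-tumor therapy. It fell with an extracranial tumor under therapy, at -0.57 ± 0.21 (adjusted p = 0.0432), and did not pass without replicate 2 of intracranial-only therapy (-0.41, adjusted p = 0.156) or with scaling by library totals alone (-0.50, adjusted p = 0.0502). Many of these genes have near-identical copies elsewhere in the genome, so their values are uncertain where reads were shared.

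Of the later steps of glycolysis, Pgk1, Eno1 and Ldha fell with an extracranial tumor under therapy. Pgk1, phosphoglycerate kinase (ENSMUSG00000062070, chrX:106187100-106203699, plus strand), was at 1335, 1249.9 and 1079 CPM in the intracranial-only IgG libraries, 1026, 1512 and 980.1 in intracranial-only therapy, 872, 1044 and 639.8 in both-tumor IgG and 706, 533 and 659.5 in both-tumor therapy. All 3 both-tumor therapy libraries were below all 3 intracranial-only therapy libraries, and the log2 difference was -0.89 ± 0.21 (adjusted p = 0.00827) under therapy and -0.52 ± 0.21 (adjusted p = 1) under IgG. Eno1, the broadly expressed enolase (ENSMUSG00000063524, chr4:150236721-150248879, plus strand), was at 2378, 2060.4 and 1958 CPM in the intracranial-only IgG libraries, 1897, 2741 and 1881 in intracranial-only therapy, 1679, 1981 and 1205 in both-tumor IgG and 1195, 857 and 1239 in both-tumor therapy. It had the smallest p of the 34 in the comparison of extracranial tumors under therapy, -0.99 ± 0.22 (adjusted p = 0.00639). Under IgG its libraries overlapped, at -0.39 ± 0.22 (adjusted p = 1), and therapy in mice with both tumors gave -0.56 ± 0.22 (adjusted p = 0.11). Ldha makes the main lactate dehydrogenase subunit of glycolytic cells (ENSMUSG00000063229, chr7:46841475-46855627, plus strand). Its levels were 3047, 2750.5 and 2240.1 CPM in the intracranial-only IgG libraries, 2297, 3504 and 2254 in intracranial-only therapy, 1807, 2700.1 and 1243 in both-tumor IgG and 1426, 1049.8 and 1399 in both-tumor therapy. The difference was -1.06 ± 0.28 (adjusted p = 0.0124) under therapy, without overlap, and -0.48 ± 0.28 (adjusted p = 1) under IgG, where both-tumor replicate 2 lay within the intracranial-only range. Without replicate 2 of both-tumor therapy, the value under therapy was -0.95 (adjusted p = 0.0511). Slc16a3, the lactate exporter MCT4, ranged over 175 to 221, 113 to 373, 40.0 to 144 and 68.6 to 112 CPM in the order of the groups above. It did not overlap with an extracranial tumor under IgG (-1.01 ± 0.52, adjusted p = 1) or under therapy (-1.23 ± 0.52, adjusted p = 0.0743). Pgam1 did not overlap under therapy at -0.58 ± 0.22 (adjusted p = 0.0526). Of the 14 genes of uptake and glycolysis, 10 did not overlap in CPM under IgG (2.78% of all genes were lower in that way) and 7 under therapy (28.5%), all lower. Of the 10, Hk1 overlapped on FPKM. Under therapy 4 of the 14 fell, near the 21.0% of all genes.

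**Figure D4:**
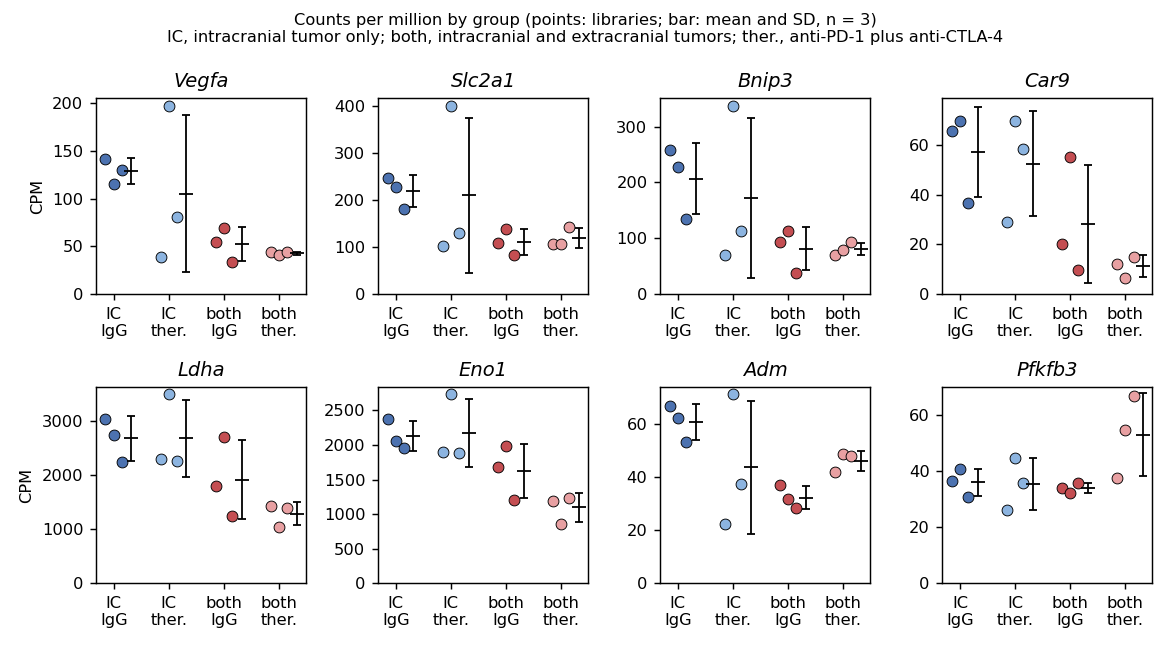
CPM of 8 genes by group, with 1 point per library and a bar for mean and SD (n = 3). Intracranial-only therapy has the widest spread for Vegfa, Slc2a1 and Bnip3, Eno1 and Ldha are lowest in both-tumor therapy, and Pfkfb3 reaches its highest values there.

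The regulators of glycolysis did not share one pattern. Pfkfb3 makes fructose 2,6-bisphosphate, an activator of phosphofructokinase (ENSMUSG00000026773, chr2:11471433-11554077, minus strand). It was at 36.4, 40.5 and 30.8 CPM in the intracranial-only IgG libraries, 26.1, 44.4 and 35.7 in intracranial-only therapy, 33.9, 32.2 and 35.6 in both-tumor IgG and 37.3, 54.7 and 66.7 in both-tumor therapy. Levels in both-tumor therapy were above all both-tumor IgG libraries, with 0.64 ± 0.23 (adjusted p = 0.0877), the smallest p of the 34 for therapy in these mice. Leaving out replicate 1 of both-tumor therapy brought this to 0.83 (adjusted p = 0.0319) and the interaction to 0.84 (adjusted p = 0.047). Against intracranial-only therapy the difference was 0.58 ± 0.23 (adjusted p = 0.0572), and 0.65 (adjusted p = 0.0355) with library totals alone. Pfkfb4, a related enzyme at low level (5.69 to 8.36, 6.69 to 7.23, 4.36 to 8.37 and 8.59 to 10.3 CPM by group), was the only 1 of the 34 higher without overlap with an extracranial tumor under therapy, at 0.41 ± 0.25 (adjusted p = 0.196). Pdk1, a kinase that shuts pyruvate out of mitochondria by inactivating pyruvate dehydrogenase (ENSMUSG00000006494, chr2:71873224-71903858, plus strand), followed the majority. It was at 164, 116 and 115 CPM in the intracranial-only IgG libraries, 83.7, 210.4 and 103 in intracranial-only therapy, 93.2, 96.5 and 62.2 in both-tumor IgG and 70.1, 69.5 and 91.5 in both-tumor therapy. The difference with an extracranial tumor was -0.65 ± 0.32 (adjusted p = 1) under IgG, without overlap, and -0.78 ± 0.32 (adjusted p = 0.0667) under therapy.

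Both oxygen sensors are HIF targets that feed back on HIF. Egln3 (ENSMUSG00000035105, chr12:54178981-54203860, minus strand) was low, at 5.85, 7.95 and 6.98 CPM in the intracranial-only IgG libraries, 2.60, 10.2 and 2.81 in intracranial-only therapy, 3.49, 4.35 and 2.23 in both-tumor IgG and 4.50, 6.32 and 8.22 in both-tumor therapy. It did not overlap between the IgG groups (-1.04 ± 0.51, adjusted p = 1), and it was higher in every both-tumor therapy library than in every both-tumor IgG library (0.92 ± 0.51, adjusted p = 0.219). Without replicate 2 of intracranial-only therapy, Egln3 was higher with an extracranial tumor under therapy, at 1.20 (adjusted p = 0.0324), where with all libraries it was at 0.28 ± 0.50 (adjusted p = 0.666). Egln1, the main HIF prolyl hydroxylase, was at 272 ± 50.7 CPM in intracranial-only IgG and 144 ± 46.5 in both-tumor IgG (SD, n = 3). It did not overlap with an extracranial tumor under IgG (-0.92 ± 0.37, adjusted p = 1) or therapy (-0.89 ± 0.37, adjusted p = 0.071).

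Among the genes of mitochondria and pH, Bnip3, a receptor for removal of mitochondria (ENSMUSG00000078566, chr7:138890836-138909519, minus strand), was at 258, 227 and 135 CPM in the intracranial-only IgG libraries, 69.2, 336 and 112 in intracranial-only therapy, 92.6, 114 and 38.3 in both-tumor IgG and 70.1, 79.2 and 92.7 in both-tumor therapy. Its lowest library, both-tumor IgG replicate 3, held 38.3 CPM and its highest, intracranial-only therapy replicate 2, 336. The log2 difference was -1.34 ± 0.55 (adjusted p = 1) under IgG, without overlap, and -1.10 ± 0.55 (adjusted p = 0.123) under therapy. Higd1a, a small protein of the respiratory chain (ENSMUSG00000038412, chr9:121848563-121858362, minus strand), was at 131, 132 and 95.7 CPM in the intracranial-only IgG libraries, 73.9, 157 and 70.6 in intracranial-only therapy, 69.1, 84.7 and 41.9 in both-tumor IgG and 54.1, 46.6 and 55.6 in both-tumor therapy. It did not overlap with an extracranial tumor in either setting, and it fell under therapy (-0.95 ± 0.32, adjusted p = 0.0353) but not past the threshold under IgG (-0.87 ± 0.32, adjusted p = 1). Without replicate 2 of intracranial-only therapy the value was -0.50 (adjusted p = 0.154). Car9, a surface carbonic anhydrase that acidifies the surroundings of hypoxic cells (ENSMUSG00000028463, chr4:43506966-43513729, plus strand), had the largest fitted difference of the 34 in any comparison. It was at 65.7, 69.5 and 36.5 CPM in the intracranial-only IgG libraries, 29.1, 69.7 and 58.5 in intracranial-only therapy, 20.1, 55.1 and 9.82 in both-tumor IgG and 12.1, 6.47 and 15.1 in both-tumor therapy. All both-tumor therapy libraries lay below all intracranial-only therapy libraries, with -2.23 ± 0.60 (adjusted p = 0.013), and -1.97 (adjusted p = 0.0528) without replicate 2 of both-tumor therapy. Under IgG, both-tumor replicate 2 lay within the intracranial-only range, and the difference was -1.02 ± 0.57 (adjusted p = 1). Bnip3l, the paralog of Bnip3, was at -0.46 ± 0.26 (adjusted p = 1) under IgG and -0.51 ± 0.26 (adjusted p = 0.132) under therapy.

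The collagen modifiers split. Plod2, a lysyl hydroxylase of collagen crosslinks (ENSMUSG00000032374, chr9:92542223-92608428, plus strand), was at 288, 241 and 276 CPM in the intracranial-only IgG libraries, 234, 416 and 228 in intracranial-only therapy, 236, 232 and 164 in both-tumor IgG and 172, 94.8 and 129 in both-tumor therapy. It fell with an extracranial tumor under therapy, at -1.15 ± 0.27 (adjusted p = 0.00767), and its libraries did not overlap under IgG either (-0.35 ± 0.27, adjusted p = 1). P4ha1, a catalytic subunit of collagen prolyl hydroxylase (ENSMUSG00000019916, chr10:59323296-59373304, plus strand), was at 131, 188 and 137 CPM in the intracranial-only IgG libraries, 106, 177 and 130.5 in intracranial-only therapy, 131, 122 and 85.7 in both-tumor IgG and 133, 179 and 185 in both-tumor therapy. Every both-tumor therapy library was above every both-tumor IgG library (0.55 ± 0.23, adjusted p = 0.126), and with an extracranial tumor P4ha1 was at -0.43 ± 0.23 (adjusted p = 1) under IgG and 0.27 ± 0.23 (adjusted p = 0.357) under therapy. P4ha2, the other member of the pair, spanned 4.86 to 80.9 CPM over the 12 libraries and was at -1.65 ± 0.69 (adjusted p = 0.0721) under therapy, without overlap.

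Kdm3a, a histone H3K9 demethylase that needs oxygen (ENSMUSG00000053470, chr6:71588972-71632990, minus strand), varied within a narrow range. It was at 138, 147 and 119 CPM in the intracranial-only IgG libraries, 127, 179 and 177 in intracranial-only therapy, 127, 122 and 119 in both-tumor IgG and 115, 113 and 106 in both-tumor therapy. It fell with an extracranial tumor under therapy (-0.53 ± 0.13, adjusted p = 0.00926), where the groups did not overlap, and was at -0.13 ± 0.13 (adjusted p = 1) under IgG. For therapy in mice with the intracranial tumor only, Kdm3a had the smallest p of the 34, at 0.26 ± 0.13 (adjusted p = 0.433), and its libraries overlapped. Mxi1, an antagonist of Myc, was at -0.54 ± 0.26 (adjusted p = 1) under IgG, without overlap.

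Of the stress and lipid genes, Ankrd37, an ankyrin repeat protein (ENSMUSG00000050914, chr8:45996902-46005707, minus strand), was at 7.74, 7.54 and 5.86 CPM in the intracranial-only IgG libraries, 2.21, 11.5 and 2.95 in intracranial-only therapy, 3.06, 4.50 and 0.793 in both-tumor IgG and 1.73, 2.04 and 1.93 in both-tumor therapy. Its exons overlap those of Lrp2bp and Ufsp2 in the annotation. Groups did not overlap in either setting, at -1.34 ± 0.66 (adjusted p = 1) under IgG and -1.54 ± 0.67 (adjusted p = 0.0812) under therapy. Hilpda, a lipid droplet protein that inhibits fat breakdown, had means of 42.6 ± 16.0, 33.9 ± 25.1, 17.0 ± 7.98 and 12.3 ± 3.20 CPM by group. It fell with an extracranial tumor under therapy, at -1.46 ± 0.51 (adjusted p = 0.0387), and was at -0.70 (adjusted p = 0.214) without replicate 2 of intracranial-only therapy. Ddit4, an inhibitor of mTOR signaling, was at -0.73 ± 0.33 (adjusted p = 1) under IgG, and Ndrg1, a stress-induced gene, at -0.51 ± 0.31 (adjusted p = 1), the latter without overlap. In mice with both tumors Ndrg1 was at 0.43 ± 0.31 (adjusted p = 0.331) with therapy, also without overlap. The submitters' notes give no strand setting for the counting, and 14 of the 34 genes share exon positions with another annotated gene, so such reads cannot be told apart.

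Levels between genes were compared on deposited FPKM, which are per length. Tpi1 was the highest of the 34, with a mean of 3219.6 FPKM over 12 libraries, followed by Gapdh at 2480.1, Ldha at 2279.9, Aldoa at 2125 and Eno1 at 1868. The ranges of neighbors among these 5 overlapped. Egln3 was the lowest at 2.05 FPKM, below Pfkfb4 at 4.31 and Ankrd37 at 5.63. The ratio of the highest to the lowest library was largest for P4ha2 at 15.3, Ankrd37 at 13.4 and Car9 at 10.7, and smallest for Aldoa at 1.53 and Kdm3a at 1.63.

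Within families of related enzymes, the share of each paralog was taken from FPKM, and no test was run on these shares. P4ha2 made up 51.7%, 41.1% and 42.0% of the summed FPKM of P4ha1 and P4ha2 in intracranial-only IgG, 33.8%, 54.9% and 31.9% in intracranial-only therapy, 27.6%, 46.9% and 13.1% in both-tumor IgG and 21.8%, 12.2% and 18.9% in both-tumor therapy. The share was lowest in both-tumor therapy (17.7% ± 4.91, SD, n = 3) and did not overlap there with either intracranial-only group. Egln1 made up 54.5% ± 5.60 of Egln1, Egln2 and Egln3 in intracranial-only IgG, 49.6% ± 14.2 in intracranial-only therapy, 38.1% ± 6.18 in both-tumor IgG and 34.7% ± 3.46 in both-tumor therapy. Ldha made up 84.7% ± 3.23, 89.0% ± 2.22, 80.1% ± 9.21 and 72.1% ± 2.73 of Ldha and Ldhb in the same order, with Ldhb, the subunit of oxidative tissues, taking the rest. Pdk1 made up 48.7% ± 4.47, 51.5% ± 7.18, 42.4% ± 7.13 and 35.8% ± 3.06 of the 4 Pdk genes. Hk2 made up 32.9% ± 2.95, 33.6% ± 4.92, 24.4% ± 6.18 and 25.4% ± 1.14 of Hk1, Hk2 and Hk3. Hk1 held a mean of 65.5%, 65.3%, 73.9% and 63.8% and Hk3 of 1.66%, 1.11%, 1.71% and 10.8% by group. The group means of 3 other shares lay closer together. Aldoa made up 94.4% ± 0.519, 95.1% ± 0.415, 94.3% ± 1.55 and 92.6% ± 1.55 of the aldolases by group, and Pfkfb3 a mean of 61.2%, 60.9%, 60.0% and 64.3% of the 4 Pfkfb genes (53.1% to 69.8% over the libraries). Pfkp was between 29.8% and 35.9% of the phosphofructokinases in every library. Markers of brain cells, which express several of the paralogs, were higher in both-tumor therapy than in intracranial-only therapy. There 7 of 12 macrophage markers also passed as higher (24.4% of all genes rose). The part of these markers in the shares was not tested.

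**Figure D5:**
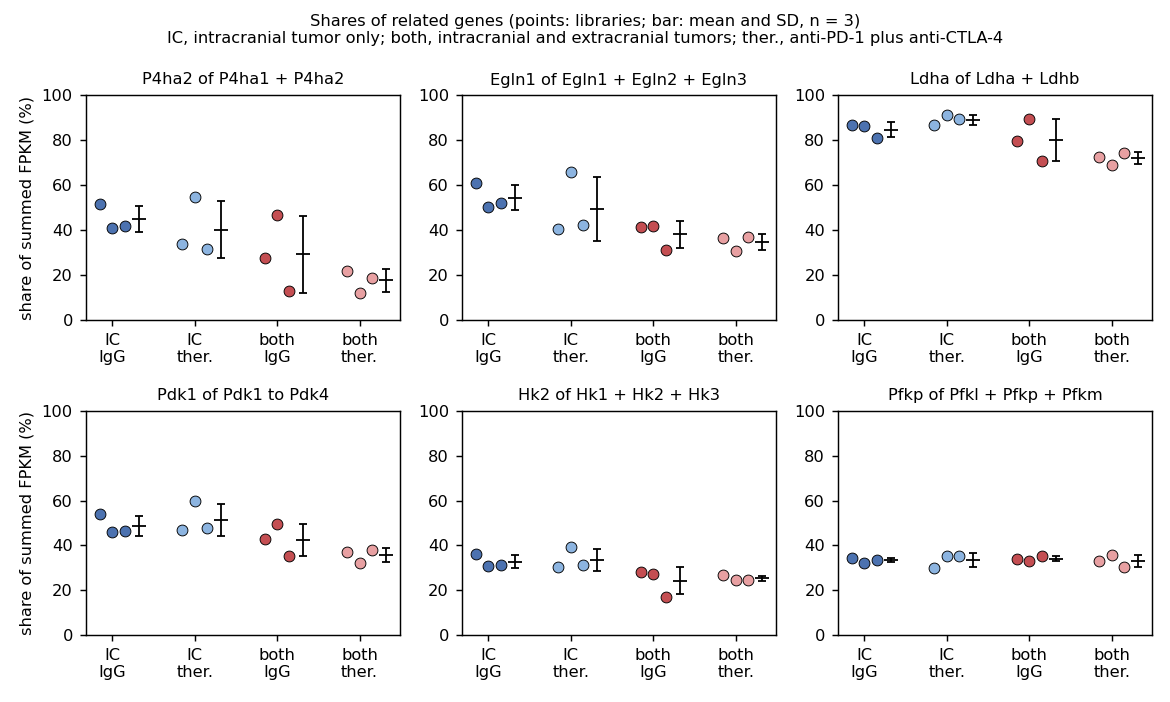
Share of the summed FPKM of a family (vertical axis, percent) taken by P4ha2, Egln1, Ldha, Pdk1, Hk2 and Pfkp, by group, with 1 point per library and a bar for mean and SD (n = 3). The P4ha2 share in both-tumor therapy lies below both intracranial-only groups, while the Pfkp share stays between 29.8% and 35.9%.

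The RNA of Hif1a varied little between libraries. It was at 372, 311 and 378 CPM in the intracranial-only IgG libraries, 358, 416 and 403 in intracranial-only therapy, 355, 297 and 338 in both-tumor IgG and 298, 317 and 339 in both-tumor therapy, and all 12 values lay within a ratio of 1.40. With an extracranial tumor it was at -0.10 ± 0.11 (adjusted p = 1) under IgG and fell under therapy, at -0.30 ± 0.11 (adjusted p = 0.0467). Arnt, its partner, was at -0.04 ± 0.08 (adjusted p = 1) and -0.23 ± 0.08 (adjusted p = 0.049) in the same comparisons, and the calls of Hif1a and Arnt were made in 7 and 3 of 21 alternative analyses. Epas1, the alpha subunit rich in endothelium, was at 34.7, 31.7 and 47.5 CPM in the intracranial-only IgG libraries, 24.0, 27.5 and 26.3 in intracranial-only therapy, 37.3, 21.0 and 37.3 in both-tumor IgG and 39.2, 39.1 and 54.9 in both-tumor therapy. It rose with an extracranial tumor under therapy, at 0.77 ± 0.24 (adjusted p = 0.0226). In that comparison 6 of 10 endothelial markers rose and 1 fell, at a summed 115 to 138 CPM in intracranial-only therapy and 185 to 253 in both-tumor therapy, and their part in the value was not tested. Of 14 tested genes of the HIF pathway, 3 rose in that comparison (Arnt2 at 3.28, Epas1 and Cited2) and 3 fell (Hif1an at -0.35, Hif1a and Arnt), close to the 24.4% and 21.0% of all genes. DESeq2 called 3 higher and 2 lower there, against 39.8% of all genes in either direction, and limma voom 3 higher and 1 lower, against 43.5%. None of the 14 was called by edgeR in the other 4 comparisons, against 0% to 22.0% of all genes. In these, 0 to 3 had an unadjusted edgeR p under 0.05, against 1.18% to 39.4%. In those 4, DESeq2 called 3 in the interaction (29.0% of all genes) and 0 in the rest (0% to 20.4%), and limma voom called 0 (0% to 10.6%).

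Other targets of hypoxia gave a like picture under IgG and a mixed one under therapy. Of 30 further targets, 26 were fitted below 0 with an extracranial tumor under IgG, by a median of -0.55, and 13 did not overlap, all lower, against 2.78% of all genes. None was called by edgeR, DESeq2 or limma voom, as for all genes (0%), and 6 had an unadjusted edgeR p under 0.05, against 1.18%. The smallest p-values were those of Fam162a at -0.92 ± 0.36, Zfp395 at -0.90 ± 0.36 and Pgf at -1.25 ± 0.53, each with an adjusted p of 1. Under therapy 10 fell and 8 rose, against 21.0% and 24.4% of all genes, with the transferrin receptor Tfrc at -1.95 ± 0.27 (adjusted p = 0.00455) and the glycogen targeting subunit Ppp1r3c at 6.22 ± 0.88 (adjusted p = 0.00455), the latter from 0.111, 0.164 and 0.0921 to 5.27, 10.6 and 12.6 CPM. At a few reads per library in the lower group, that fitted value depends on the prior count. In mice with both tumors, Tfrc was the 1 gene of these 30 called by edgeR for therapy against IgG, at -1.48 ± 0.27 (adjusted p = 0.0498), against 5.39% of all genes. That call was made in 8 of 21 alternatives. DESeq2 called 6 of the 30 higher and 1 lower there, against 20.4% of all genes in either direction. Calls by limma voom were 1 higher and 1 lower, against 10.6%. Groups did not overlap for 7 higher and 1 lower, against 17.9% and 20.1% of all genes. In mice with the intracranial tumor only, 0 of 30 were called by edgeR or limma voom, as for all genes (0%). DESeq2 called 3, against 5.70% of all genes, and 6 had an unadjusted edgeR p under 0.05, against 13.5%.

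Of 18 tested glycolysis genes outside the 34, 8 rose with an extracranial tumor under therapy and 2 fell, against 24.4% and 21.0% of all genes. In that comparison all 12 neuron, all 11 oligodendrocyte and 9 of 10 astrocyte markers rose, and their part in these calls was not tested. Those with the smallest p were Pdk4, also at a few reads per library in intracranial-only therapy, at 4.07 ± 0.68 (adjusted p = 0.00455), Pdk2 at 2.94 ± 0.59 (adjusted p = 0.00478) and Eno2, the neuronal enolase, at 2.85 ± 0.63 (adjusted p = 0.00606). The 2 that fell were Pkm at -0.49 and the transporter Slc16a1 at -1.20. Under IgG, 12 were fitted below 0 and 1, Pdk3, was lower without overlap, against 2.78% of all genes. By edgeR, DESeq2 or limma voom 0 were called, as for all genes (0%), and 1 had an unadjusted edgeR p under 0.05, against 1.18%. Of 20 genes of mitochondrial oxidation, 8 fell and 2 rose with an extracranial tumor under therapy, against 21.0% and 24.4% of all genes, with the smallest p for citrate synthase, Cs, at -0.48 ± 0.12 (adjusted p = 0.0106). Under IgG 0 of the 20 were called by edgeR, DESeq2 or limma voom, as for all genes (0%), and their median was -0.04. An unadjusted edgeR p under 0.05 was reached by 0, against 1.18% of all genes, and 0 did not overlap, against 2.78% lower.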

How the data were processed

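RNA was sequenced from 12 intracranial tumors in 4 groups of 3. The authors deposited raw read counts per Ensembl gene and FPKM (read counts scaled by gene length and library size), and the submitters' processing notes name Bowtie2 2.2.3, TopHat2 2.0.12, HTSeq 0.6.1 and GRCm38. No strand setting is stated there. FPKM followed from the counts for 16062 of 16062 genes checked, within a relative tolerance of 1e-06.

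Counts were fitted in edgeR 4.0.16 (R 4.3.3) with TMM scaling, a minimum count of 10, the quasi-likelihood test, 4 group means over all 12 libraries and Benjamini-Hochberg adjustment. The interaction is the therapy effect with both tumors minus that with the intracranial tumor only. At a common dispersion of 0.112 (a biological coefficient of variation of 33.5%), 3 libraries per group limit the precision. FPKM served for levels between genes. GENCODE M21 gave symbols for 46488 of 47069 identifiers and coordinates on GRCm38. Alternatives were RLE factors, library totals, no filter, DESeq2 1.42.0, limma voom 3.58.1, the compared groups alone, a neuron score as covariate, log2 FPKM with pseudocounts of 1 and 0.1, and each library left out. Fits were tested on simulated data.

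The members and lists were chosen with earlier results of these data known. Named by rule were 10 genes fixed by name, the 3 members with the smallest p in each comparison, and for other lists Hif1a, Epas1, Arnt and up to 3 genes with the smallest p. Other genes named were chosen after their values were seen, and counts of groups that do not overlap are at TMM-scaled CPM.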

Additional observations from a re-analysis of the deposited data

Results flagged for a closer look

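For none of the 34 genes did the effect of therapy differ past the threshold between mice with both tumors and with the intracranial tumor only. This edgeR interaction passed for 22.0% of all genes and for 12 genes of the other lists. Those lists held 14 tested genes of the HIF pathway, 30 further hypoxia targets, 18 glycolysis genes and 20 genes of mitochondrial oxidation. Of the further hypoxia targets, the interaction was 6.46 for Ppp1r3c, 5.67 for Nrn1, 4.66 for Ppfia4, 2.78 for Cxcr4, 2.69 for Stc2 and 0.64 for Insig2, on the log2 scale, and -1.98 for Tfrc. Of the further glycolysis genes it was 3.78 for Pdk4, 3.07 for Eno2, 2.84 for Pdk2 and 0.78 for Ldhb, and of mitochondrial oxidation 0.72 for Mpc2, a pyruvate carrier subunit. Ppp1r3c was at 2.53, 2.58 and 5.10 CPM in intracranial-only IgG, 0.111, 0.164 and 0.0921 in intracranial-only therapy, 4.93, 0.455 and 3.27 in both-tumor IgG and 5.27, 10.6 and 12.6 in both-tumor therapy. Tfrc, the receptor for iron uptake, was at 367, 293 and 364 CPM in intracranial-only IgG and 537, 459 and 455 in intracranial-only therapy, and at 361, 462 and 226 in both-tumor IgG and 171, 105 and 100.4 in both-tumor therapy. Ppp1r3c and Pdk4 had only a few reads per library in intracranial-only therapy (Pdk4 at 0.111, 0.274 and 0.138 CPM), so their fitted values depend on the prior count and are no bound. These 12 calls were made in 5 to 11 of 20 alternative analyses each. The summed neuron markers were 105 to 116 CPM in intracranial-only therapy and 546 to 1477 in both-tumor therapy, and their part in these values was not tested beyond the covariate, under which 0 of the 12 passed, as did 0% of all genes.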

How the results depend on the processing

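Of gene values for the 34 under other settings, 22 lost a call at an unchanged sign. A further 3 (Gapdh, Car9 and Hilpda) lost a call and changed the sign of the fitted value. A call was gained by 13, and 1458 did none of these. Leaving out 1 library lost 24 and gained 25 calls of 2040. No paired analysis was run, because the labels name no animal and pair no samples of different groups. For the effect of the extracranial tumor under therapy, the 10 calls became 17 with DESeq2 (16 lower, 1 higher) and 0 with the neuron score as covariate, under which 0% of all genes were called, when the median became -0.0046, Gapdh 0.11, Car9 0.32 and Hilpda 0.0255. The same covariate changed the sign of the fitted value, without a call, for genes of the other lists. These were Arnt2 (-0.94), Epas1 (-0.23), Mif (0.11), Bhlhe41 (-0.15), Aldoc (-0.16), Ldhb (-0.0231), Eno2 (-0.34), Pfkm (-0.14), Pdk2 (-0.15) and Pdhb (0.0105) there, and Eno2 (-0.40) and Pdk2 (-0.44) in the interaction. The covariate moved the median of the 34 to -0.56 for therapy in mice with the intracranial tumor only and to 0.73 in the interaction. Leaving out 1 library gave 4 to 17 calls for the extracranial tumor under therapy, 0 to 1 for therapy in mice with both tumors (DESeq2 1) and 0 to 1 for the interaction, with interaction medians of -0.22 to 0.52. Genes whose groups did not overlap then numbered 7 to 22 for therapy with both tumors, 0 to 27 for therapy with the intracranial tumor only, and 15 to 25 for the extracranial tumor under therapy. That count was added after seeing the data. The causes of these changes were not tested. At 3 libraries a group, a p that missed the threshold does not show that levels were alike.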
